A study of Mus musculus with 10 samples.

Results

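Paneth cells are secretory cells at the base of small intestinal crypts. They store antimicrobial proteins in apical granules, release them into the crypt lumen and supply signals to the neighbouring stem cells. The alpha-defensins are their best known products, and the granules also hold enzymes and lectins that act on bacterial walls, membranes and surface sugars. The 10 genes described here encode products of Paneth cells other than defensins: Lyz1, Pla2g2a, Ang4, Mmp7, Itln1, Mptx1, Mptx2, Habp2, Pnliprp2 and Clps. They were taken by gene symbol from 19505 genes measured on 10 single-colour arrays, and each of the 10 was measured by 1 probe set. The RNA came from small intestine organoids of BALB/c mice, three-dimensional cultures of crypt epithelium, grown in a commercial organoid growth medium in a basement membrane gel. In 5 cultures the organoids received 20 ng/ml recombinant murine TNF with 5 mg/ml pegtarazimod, a pegylated peptide that blocks the classical complement pathway and myeloperoxidase, for 48 h. In the other 5 they received the same TNF with 2.625 mM PEG as vehicle for the same time. TNF, an inflammatory cytokine, was thus present in both groups, and cultures without TNF were not analysed here. The sources used here do not say how the 5 biological replicates of a group were set apart.

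Values are log2 expression after RMA, so a difference of 1 is a doubling, and every difference is pegtarazimod minus vehicle. Over all genes, array medians lay between 5.59 and 5.65 and lower quartiles between 3.83 and 3.90, and single values near or below the lower quartile cannot be told from background. In both groups replicates 1 and 2 stood apart from replicates 3 to 5. On the leading principal component of the deviations from the group means, which held 33.4% of their variance, pegtarazimod 1 and 2 lay at -27.6 and -19.0 and pegtarazimod 3 to 5 between 11.4 and 21.2, while vehicle 1 and 2 lay at -13.5 and -12.0 and vehicle 3 to 5 between 8.20 and 9.02. No label calls this division a batch, but the order of deposit follows it, with replicates 1 and 2 of both groups before replicates 3 to 5. The main fit had no term for it. Values within replicates 1 and 2 and within replicates 3 to 5 are therefore given for the products, and for other genes and lists as counts or where they differ. A block for the division, used below, was set after the division was seen in these data. Its p-values, and those within the subsets, are thus no independent support.

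Of the 10 products, Pla2g2a, Ang4 and Habp2 fell with pegtarazimod, Mptx1 and Mptx2 rose, and Lyz1, Mmp7, Itln1, Clps and Pnliprp2 did not pass the test over the 10 arrays. Pla2g2a was 5.19-fold, Ang4 2.62-fold and Habp2 1.82-fold lower, and Mptx1 was 1.80-fold and Mptx2 1.73-fold higher. In the limma test, with p adjusted over all genes by Benjamini-Hochberg, 4.89% of all genes passed, 2.39% lower and 2.5% higher, against 3 of 10 products lower and 2 of 10 higher. The same 5 genes were those whose values did not overlap between the groups, which held for 3.36% of all genes in the lower direction and 3.35% in the higher. The median difference of the 10 products was -0.65, beside 0.00285 over all genes. In a bulk sample, fewer cells of a type and less RNA per cell cannot be told apart, so these values do not separate a change in the number of Paneth cells from one in their content.

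**Figure D1:**
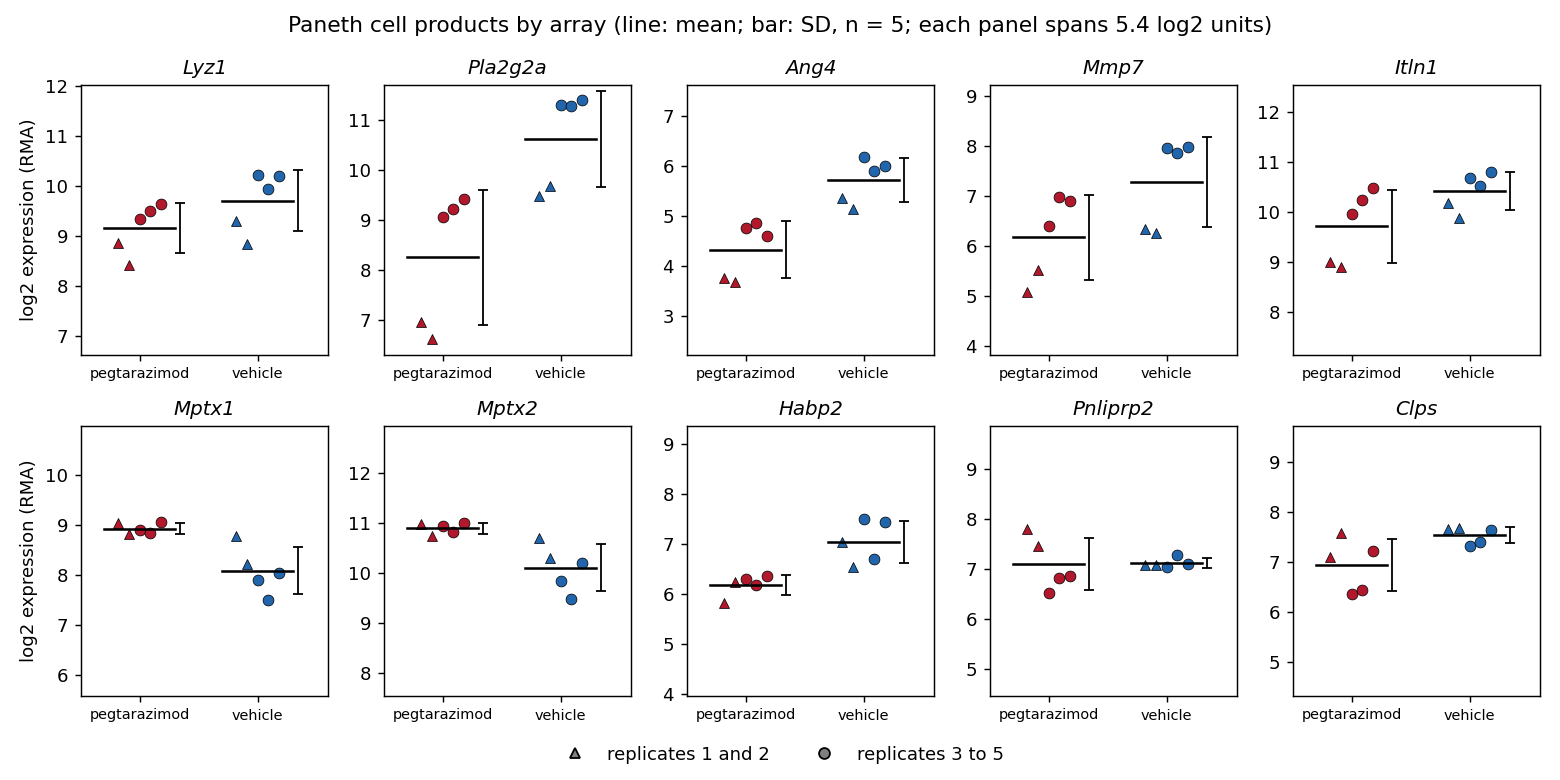
Log2 expression (RMA) of 10 Paneth cell products on each array, with 5 pegtarazimod arrays in red to the left of 5 vehicle arrays in blue; triangles are replicates 1 and 2, circles replicates 3 to 5, lines group means and bars SD, and every panel spans the same range of 5.4 log2 units. Pla2g2a, Ang4 and Habp2 lay lower on every pegtarazimod array than on any vehicle array and Mptx1 and Mptx2 higher, whereas Lyz1, Mmp7 and Itln1 had lower pegtarazimod means within each set of symbols but overlapped between the groups.

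The granule enzymes that act on bacteria are the lysozyme Lyz1, which cleaves cell wall peptidoglycan, the secreted phospholipase Pla2g2a, which hydrolyses bacterial membrane lipids, and Ang4, a mouse ribonuclease of the angiogenin family with microbicidal activity. The reference assembly GRCm38.p6 is of C57BL/6J, a strain that carries a disrupted Pla2g2a gene, and its gene table lists Pla2g2a as a transcribed pseudogene. BALB/c mice are known to carry an intact copy. On the arrays with pegtarazimod 1 to 5, Pla2g2a read 6.97, 6.62, 9.05, 9.22 and 9.43, against 9.48, 9.69, 11.31, 11.29 and 11.40 with vehicle 1 to 5. The groups did not overlap, but replicates 1 and 2 were the lowest of each, and the highest pegtarazimod array lay just under the lowest vehicle array. The group means were 8.26 ± 1.35 with pegtarazimod and 10.63 ± 0.96 with vehicle (SD, n = 5 each), a difference of -2.38 ± 0.56 (SE, 95% interval -3.59 to -1.17, limma adjusted p = 0.0283). Within replicates 1 and 2 the difference was -2.79 and within replicates 3 to 5 it was -2.10, with limma adjusted p of 1.58e-06 and 3.33e-06 at a spread pooled over the 4 groups. Over the 10 arrays the call of Pla2g2a was lost without any one of pegtarazimod 1, pegtarazimod 2, vehicle 3, vehicle 4 and vehicle 5, with limma adjusted p of 0.0703, 0.0644, 0.0827, 0.0768 and 0.0764 in that order, and with an intensity trend and robust priors (0.109).

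Ang4 read 3.76, 3.67, 4.77, 4.86 and 4.60 with pegtarazimod 1 to 5, against 5.37, 5.15, 6.18, 5.91 and 5.99 with vehicle 1 to 5. Every pegtarazimod array was below every vehicle array, and on pegtarazimod 1 and 2 the value lay below the array's lower quartile. The difference was -1.39 ± 0.25 (SE, 95% interval -1.94 to -0.85, limma adjusted p = 0.0072), and it was -1.29 in replicates 3 to 5. In replicates 1 and 2 the measured difference was -1.55. Both pegtarazimod values there cannot be told from background, so the size of this difference is not exact. The call was kept without any single array, with limma adjusted p of at most 0.0252.

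Lyz1 read 8.86, 8.42, 9.34, 9.50 and 9.64 with pegtarazimod 1 to 5, against 9.29, 8.83, 10.21, 9.94 and 10.20 with vehicle 1 to 5. The groups overlapped because vehicle 1 and 2 lay below pegtarazimod 3 to 5, while within each set of replicates the pegtarazimod mean was the lower. Over the 10 arrays the difference was -0.54 ± 0.28 (SE, 95% interval -1.14 to 0.05) and did not pass (limma adjusted p = 0.319). With replicates 1 and 2 against 3 to 5 as a block it passed at the same size (limma adjusted p = 0.0100). Within replicates 3 to 5 the difference was -0.62 (adjusted p = 0.0473) and within replicates 1 and 2 it was -0.42 (adjusted p = 0.269).

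Mmp7 is the metalloproteinase that cuts the pro-forms of the alpha-defensins into active peptides in mouse Paneth cells. It read 5.07, 5.51, 6.40, 6.97 and 6.89 with pegtarazimod 1 to 5, against 6.34, 6.26, 7.96, 7.86 and 7.98 with vehicle 1 to 5. As for Lyz1, the groups overlapped through vehicle 1 and 2, whereas within replicates 1 and 2 and within replicates 3 to 5 every pegtarazimod array was below every vehicle array. The difference of -1.11 ± 0.42 (SE) did not pass over the 10 arrays (95% interval -2.02 to -0.21, limma adjusted p = 0.161). It was -1.01 in replicates 1 and 2 (adjusted p = 0.00708), -1.18 in replicates 3 to 5 (adjusted p = 0.000882), and passed with the block (adjusted p = 4.15e-05).

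The sequences upstream of Ang4 and Mmp7 are shown because both hold the letters of the AP-1 motif, TGANTCA, which is bound by the Fos and Jun factors, a family known to respond to TNF. Each is the 250 bases before the annotated start from the RefSeq promoter table, build GRCm38.p6, on the gene's own strand, with the motif in capitals. The Ang4 window is chr14:51773591-51773840, minus strand, and the Mmp7 window is chr9:7691840-7692089, plus strand.
Ang4: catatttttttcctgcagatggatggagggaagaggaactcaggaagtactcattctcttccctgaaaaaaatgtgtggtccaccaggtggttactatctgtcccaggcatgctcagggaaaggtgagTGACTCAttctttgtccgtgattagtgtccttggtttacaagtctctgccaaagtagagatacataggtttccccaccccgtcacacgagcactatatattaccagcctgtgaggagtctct
Mmp7: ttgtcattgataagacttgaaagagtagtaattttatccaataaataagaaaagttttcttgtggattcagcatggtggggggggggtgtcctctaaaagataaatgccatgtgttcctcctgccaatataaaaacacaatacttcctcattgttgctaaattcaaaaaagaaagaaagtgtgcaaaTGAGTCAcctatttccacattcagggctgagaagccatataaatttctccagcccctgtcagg
Counted back from the start, the motif began at position -122 in Ang4 and at position -63 in Mmp7. Searched on both strands, it was present in 2 of the 8 products that have a window in the table, each read from its first window only. It was present in 6.75% of 32851 windows of the same length. This percentage and those below count windows, of which a gene can have several, and not genes. A TATAAA motif, the core of a TATA box, began at positions -123 and -26 on the own strand of Mmp7, and it was found in 12.4% of all windows. In Mptx1 it stood on the opposite strand only, at -198 to -193 and at -82 to -77. The letters ATCAAAG, a TCF/LEF motif read by Wnt signalling, the E-box CAGCTG and an NF-kB motif were in none of the 8 windows, and stood in 3.21%, 13% and 1.41% of all windows. The AP-1 and TATAAA letters did not overlap each other, and a match of letters describes these windows and is not a measured binding site.

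Among the products that bind microbial surfaces, both pentraxins rose, and the lectin gene Itln1 did not pass. Mptx1 and Mptx2 are mucosal pentraxins, relatives of C-reactive protein and serum amyloid P, which are soluble pattern recognition proteins. On pegtarazimod 1 to 5, Mptx1 read 9.04, 8.82, 8.91, 8.85 and 9.06, against 8.79, 8.23, 7.90, 7.51 and 8.04 on vehicle 1 to 5. Mptx2 read 10.99, 10.75, 10.94, 10.83 and 11.01 with pegtarazimod, against 10.71, 10.30, 9.85, 9.48 and 10.21 with vehicle. All pegtarazimod arrays lay within a narrow band above every vehicle array, with vehicle 1 closest to it. The SD over the 5 arrays was 0.11 with pegtarazimod and 0.47 with vehicle for both genes. Mptx1 rose by 0.84 ± 0.18 (SE, 95% interval 0.46 to 1.23, limma adjusted p = 0.0157). Mptx2 rose by 0.79 ± 0.18 (SE, 95% interval 0.41 to 1.17, limma adjusted p = 0.0214).

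Both pentraxins were higher with pegtarazimod on average in each set of replicates. Mptx1 differed by 0.42 there and by 1.13 in replicates 3 to 5, and Mptx2 by 0.36 and 1.08. Within replicates 1 and 2 neither passed (limma adjusted p = 0.304 and 0.425), and within replicates 3 to 5 both did (0.0019 and 0.00305). The test of the difference between the subsets did not pass for either gene after adjustment over all genes (limma interaction adjusted p = 0.522 and 0.530). Without pegtarazimod 1 the limma adjusted p was 0.0506 for Mptx2, and without vehicle 3 it was 0.0511 for Mptx1 and 0.0691 for Mptx2.

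The upstream sequences of both pentraxin genes are shown because the genes moved together and are close relatives on the same chromosome. Each is again the 250 bases before the annotated start from RefSeq, GRCm38.p6, with the longest run of letters shared by both in capitals. The Mptx1 window is chr1:174330268-174330517, plus strand, and the Mptx2 window is chr1:173277757-173278006, minus strand.
Mptx1: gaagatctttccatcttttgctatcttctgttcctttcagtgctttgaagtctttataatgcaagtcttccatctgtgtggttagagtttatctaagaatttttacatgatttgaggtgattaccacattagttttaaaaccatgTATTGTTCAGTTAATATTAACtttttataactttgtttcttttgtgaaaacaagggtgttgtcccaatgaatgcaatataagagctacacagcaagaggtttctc
Mptx2: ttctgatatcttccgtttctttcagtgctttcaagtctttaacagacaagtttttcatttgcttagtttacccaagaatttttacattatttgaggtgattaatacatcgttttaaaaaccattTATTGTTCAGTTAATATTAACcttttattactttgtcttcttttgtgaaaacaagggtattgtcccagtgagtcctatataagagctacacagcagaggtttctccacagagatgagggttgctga
The shared run was 21 bases long, and 202 of 273 columns of a global alignment of the windows were identical (74.0%). Mptx2 minus Mptx1 within an array lay between 1.93 and 2.03 on the pegtarazimod arrays and between 1.92 and 2.17 on the vehicle arrays, so both readings followed each other closely. Near-identical genes can share probes, and how far each probe set takes up signal of the other gene was not tested.

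Itln1 encodes intelectin, a lectin that binds sugars found on microbial surfaces. It read 8.99, 8.89, 9.96, 10.25 and 10.48 with pegtarazimod 1 to 5, against 10.18, 9.87, 10.69, 10.52 and 10.79 with vehicle 1 to 5. The groups overlapped over the 10 arrays, but not within either set of replicates, where the pegtarazimod arrays were lower. The difference was -0.70 ± 0.29 (SE, 95% interval -1.31 to -0.08), short of the threshold (limma adjusted p = 0.201). It was -1.09 in replicates 1 and 2 (adjusted p = 0.00278) and -0.44 in replicates 3 to 5 (0.139), and passed with the block (0.00477).

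**Figure D2:**
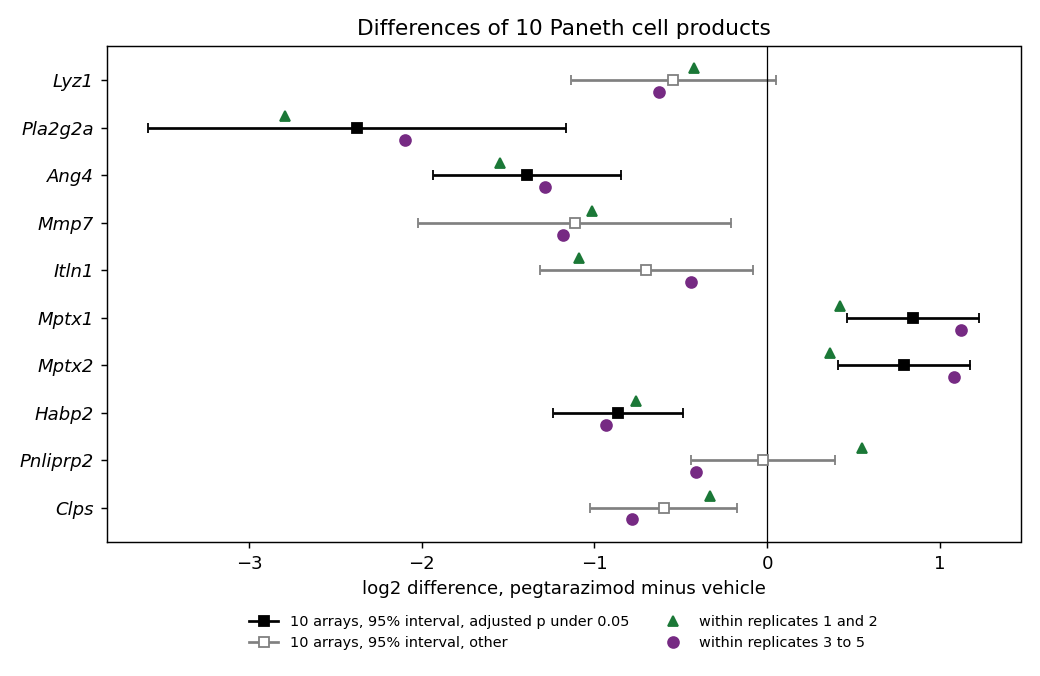
Log2 differences, pegtarazimod minus vehicle, of the 10 products: squares with bars give the difference over 10 arrays and its 95% interval, filled black where the limma adjusted p was below 0.05, triangles the difference within replicates 1 and 2, and circles that within replicates 3 to 5. For 9 of the 10 genes both subsets fell on the same side of 0, and for Pnliprp2 they fell on opposite sides, at 0.55 and -0.41.

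Habp2, a secreted serine protease that binds hyaluronan, was lower. Its values were 5.83, 6.24, 6.30, 6.19 and 6.36 with pegtarazimod 1 to 5, against 7.05, 6.55, 7.50, 6.71 and 7.45 with vehicle 1 to 5. No pegtarazimod array reached any vehicle array, and here neither group showed replicates 1 and 2 apart from the others. Habp2 fell by 0.86 ± 0.18 on the log2 scale (SE, limma adjusted p = 0.013), and the call was kept without any single array (adjusted p of at most 0.0393). The difference was -0.76 in replicates 1 and 2 (adjusted p = 0.0961) and -0.93 in replicates 3 to 5 (0.0212).

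The products that digest lipids were Pnliprp2, a lipase related to pancreatic lipase, and Clps, the colipase that anchors lipase to fat droplets. Pnliprp2 read 7.80, 7.46, 6.51, 6.82 and 6.86 with pegtarazimod 1 to 5, against 7.07, 7.09, 7.04, 7.28 and 7.10 with vehicle 1 to 5. Pegtarazimod 1 and 2 were above all vehicle arrays and pegtarazimod 3 to 5 below all of them, so the mean difference of -0.02 ± 0.19 (SE, limma adjusted p = 0.965) averages opposite values. The difference was 0.55 in replicates 1 and 2 (limma adjusted p = 0.0641) and -0.41 in replicates 3 to 5 (0.131). The test of the difference between the subsets gave 0.96 ± 0.21 (SE) and did not pass after adjustment over all genes (limma interaction adjusted p = 0.212). The SD of Pnliprp2 was 0.52 with pegtarazimod and 0.09 with vehicle.

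Clps read 7.09, 7.57, 6.36, 6.43 and 7.21 with pegtarazimod 1 to 5, against 7.65, 7.67, 7.31, 7.39 and 7.64 with vehicle 1 to 5. Only pegtarazimod 2 lay within the range of the vehicle arrays. The difference of -0.60 ± 0.20 (SE, 95% interval -1.03 to -0.17) did not pass (limma adjusted p = 0.106), but passed with the block (0.0307) and without pegtarazimod 2 (0.0373). Both genes are also known from pancreatic acinar cells. Of 17 measured acinar genes none passed over the 10 arrays (with the block 1 did, Ctrb1, limma adjusted p = 0.0457), their mean level per array lay between 4.13 and 4.42 with pegtarazimod and between 4.05 and 4.17 with vehicle, and 6 of the 17 were under the lower quartile on each of the 10 arrays. The chymotrypsinogen gene Ctrb1, named after its values were seen, read 7.23, 6.64, 5.07, 4.21 and 4.76 with pegtarazimod 1 to 5, against 5.08, 4.75, 4.33, 4.76 and 4.18 with vehicle 1 to 5. It was high on the same 2 arrays as Pnliprp2 and differed by 2.02 within replicates 1 and 2 (limma adjusted p = 0.000885). Its part in the values of Pnliprp2 was not tested.

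The division of the replicates ran through the products in different ways. Replicates 1 and 2 lay below replicates 3 to 5 in both groups for Lyz1, Pla2g2a, Ang4, Mmp7 and Itln1, 5 of the 10 products, against 4.98% of all genes. Among these, the vehicle means of replicates 1 and 2 were lower than those of replicates 3 to 5 by 1.06 for Lyz1, 1.75 for Pla2g2a, 0.77 for Ang4, 1.63 for Mmp7 and 0.64 for Itln1. The pegtarazimod means of replicates 1 and 2 were lower by 0.85 for Lyz1, 2.44 for Pla2g2a, 1.02 for Ang4, 1.47 for Mmp7 and 1.29 for Itln1. In both groups this exceeded the difference between pegtarazimod and vehicle for Lyz1 and Mmp7, and in the pegtarazimod group it did so for Pla2g2a and Itln1 as well. On the vehicle arrays Mptx1, Mptx2 and Clps ran the other way, with replicates 1 and 2 above the others. These were 3 of the 10 products, against 13.2% of all genes. On the pegtarazimod arrays only Pnliprp2 did so, 1 of the 10 products, against 14.9% of all genes. With the division as a block, 7 of the 10 products were lower and 2 higher, all but Pnliprp2, where 9.33% of all genes passed, 4.83% lower and 4.5% higher. Within replicates 1 and 2, 4 products were lower and none higher, where 6.3% of all genes passed, 3.37% lower and 2.93% higher. Within replicates 3 to 5, 5 products were lower and 2 higher, where 3.34% of all genes passed, 1.5% lower and 1.84% higher. No product passed the limma test of the difference between the subsets after adjustment, which 0.0256% of all genes did. Before adjustment the p of this test was below 0.05 for Pla2g2a, Itln1, Mptx1, Mptx2 and Pnliprp2. The share of all genes below that unadjusted level was not counted, so these 5 cannot be set beside it.

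Whether the pentraxins and lysozyme changed unequally was tested on the log2 difference of 2 genes within each array. Mptx1 minus Lyz1 was -0.22 ± 0.48 with pegtarazimod and -1.60 ± 0.96 with vehicle (SD, n = 5 each), a change of 1.39 (two-sided exact permutation p = 0.0397, adjusted over 3 pairs 0.0714). Mptx2 minus Lyz1 was 1.75 ± 0.45 with pegtarazimod and 0.41 ± 0.95 with vehicle, a change of 1.34 (exact permutation p = 0.0476, adjusted 0.0714). Neither passed after adjustment over the 10 arrays. In both, vehicle 1 and 2 overlapped pegtarazimod 3 to 5, and within each set of replicates every pegtarazimod value was above every vehicle value. Mptx2 minus Mptx1 changed by -0.05 (exact permutation p = 0.365), with 0.00794 as the smallest p that 5 arrays against 5 allow. The adjusted p of the pairs with Lyz1 was 0.0357 without vehicle 1 or without vehicle 2.

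**Figure D3:**
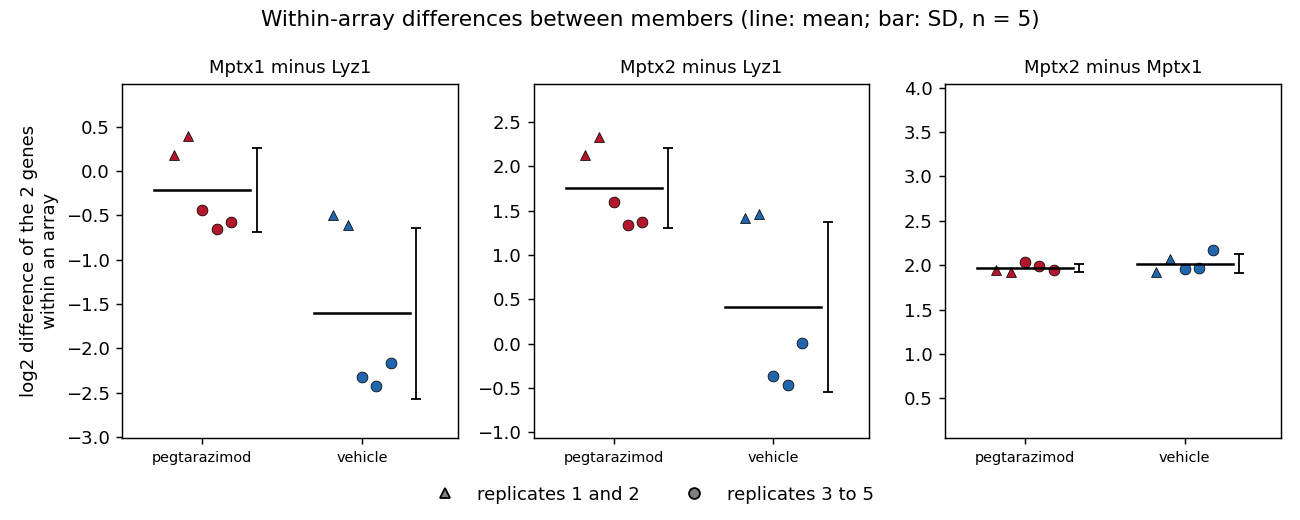
Log2 difference between 2 members within each array, with pegtarazimod to the left of vehicle; triangles are replicates 1 and 2, circles replicates 3 to 5, lines means and bars SD (n = 5 each). Mptx1 minus Lyz1 lay between -0.65 and 0.40 with pegtarazimod and between -2.43 and -0.50 with vehicle, whereas Mptx2 minus Mptx1 stayed near 2 in both groups.

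Relatives of the products were read from other probe sets. Lyz2, the lysozyme of macrophages and other cells, which lies next to Lyz1 in the genome, was 7.39 ± 0.34 with pegtarazimod and 7.86 ± 0.48 with vehicle, a difference of -0.47 that did not pass (SD, n = 5 each, limma adjusted p = 0.248). As for Lyz1, it passed with the block (0.0148), and the difference was -0.59 in replicates 3 to 5 (limma adjusted p = 0.0345) and -0.29 in replicates 1 and 2 (0.426). Of all genes outside the products, Lyz2 had the pattern most like Lyz1 over the 10 arrays, with a root mean square difference of 0.16 log2 units after each gene was centred on its mean. As these genes are near-identical, whether the probe set of Lyz2 takes up Lyz1 transcripts was not tested. The defining leukocyte marker Ptprc lay between 3.77 and 4.50 on all arrays. In the leukocyte list, Cd14 averaged 5.92 with pegtarazimod and 6.40 with vehicle, and Elane 5.78 and 5.83. The other genes of that list, Lyz2 aside, had lower means than these. Which cells gave the Lyz2 signal was not tested. Pla2g5, another secreted phospholipase and the neighbour of Pla2g2a, read 4.96, 5.54, 5.84, 5.01 and 5.34 with pegtarazimod 1 to 5, against 6.25, 6.32, 7.76, 7.56 and 7.49 with vehicle 1 to 5. It fell by 1.74 ± 0.29 (SE, limma adjusted p = 0.00386), with a difference of -1.04 in replicates 1 and 2 and -2.21 in replicates 3 to 5, and the related Pla2g2f fell by 0.57 (0.0257). The secreted phospholipase genes Pla2g1b, Pla2g2c, Pla2g2d, Pla2g2e and Pla2g10 differed by -0.57, -0.21, -0.44, 0.10 and 0.09 and did not pass (lowest limma adjusted p = 0.0783).

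Among the ribonucleases, Rnase1 fell by 1.53 ± 0.19 (SE, limma adjusted p = 0.000614) to 3.95 ± 0.44 with pegtarazimod, against 5.48 ± 0.26 with vehicle (SD, n = 5 each). On 4 of the 5 pegtarazimod arrays it lay below the lower quartile. Values there cannot be told from background, so the size of this difference is not exact. The angiogenin relatives Ang2, Ang5 and Ang6 lay below the lower quartile on 10, 7 and 9 arrays and did not pass, as did the pentraxin Apcs, which was dim on all 10. The pentraxin Crp differed by 0.50 (adjusted p = 0.370) and the lipase Pnliprp1, the neighbour of Pnliprp2, by 0.03 (0.948). Of 26 relatives measured, 3 fell and none rose, with a median difference of -0.02. With the block 4 were lower, within replicates 1 and 2 the count was 2, and within replicates 3 to 5 it was 4.

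Of 22 alpha-defensins measured, 18 fell and none rose (16 of 19 distinct sets of values), at a median difference of -0.80, and Defa31 fell by 0.92, Defa3 and Defa17, which had identical values, by 0.96 and Defa26 by 0.68. Within replicates 1 and 2, 9 of the 22 were lower, and within replicates 3 to 5, 17 were. Defensin genes are near-identical and can share probes. Of 11 regulators of Paneth cells, Sox9, the transcription factor required for their formation, fell by 1.05 ± 0.11 (SE, limma adjusted p = 0.000196), and Ephb3, a receptor that positions them in the crypt, by 0.73 ± 0.14 (0.00800). Fzd5, the Wnt receptor required for their maturation, rose by 0.78 ± 0.12 (0.00276). Atoh1, the factor of all secretory lineages, differed by -0.07, Gfi1 by -0.03, Spdef by 0.26 and Xbp1 by 0.26, and these did not pass. With the block, Nfib and Bhlha15 were also lower (limma adjusted p = 0.0425 and 0.0153).

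Of 7 niche signals and surface markers of Paneth cells, the Notch ligand gene Dll1 fell by 0.48 and the surface protein gene Cd24a by 0.47 (limma adjusted p = 0.0285 and 0.0315), and none rose. The stem cell signals Wnt3 and Egf differed by -0.11 and -0.17 and did not pass. The Notch ligand gene Dll4 was lower with the block (limma adjusted p = 0.0365, against 0.0593 without it). Of 16 genes of granule and secretory handling only Agr2, a disulphide isomerase of secretory cells that goblet cells also express, passed without the block (0.73, limma adjusted p = 0.0282), and the list median was 0.04.

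**Figure D4:**
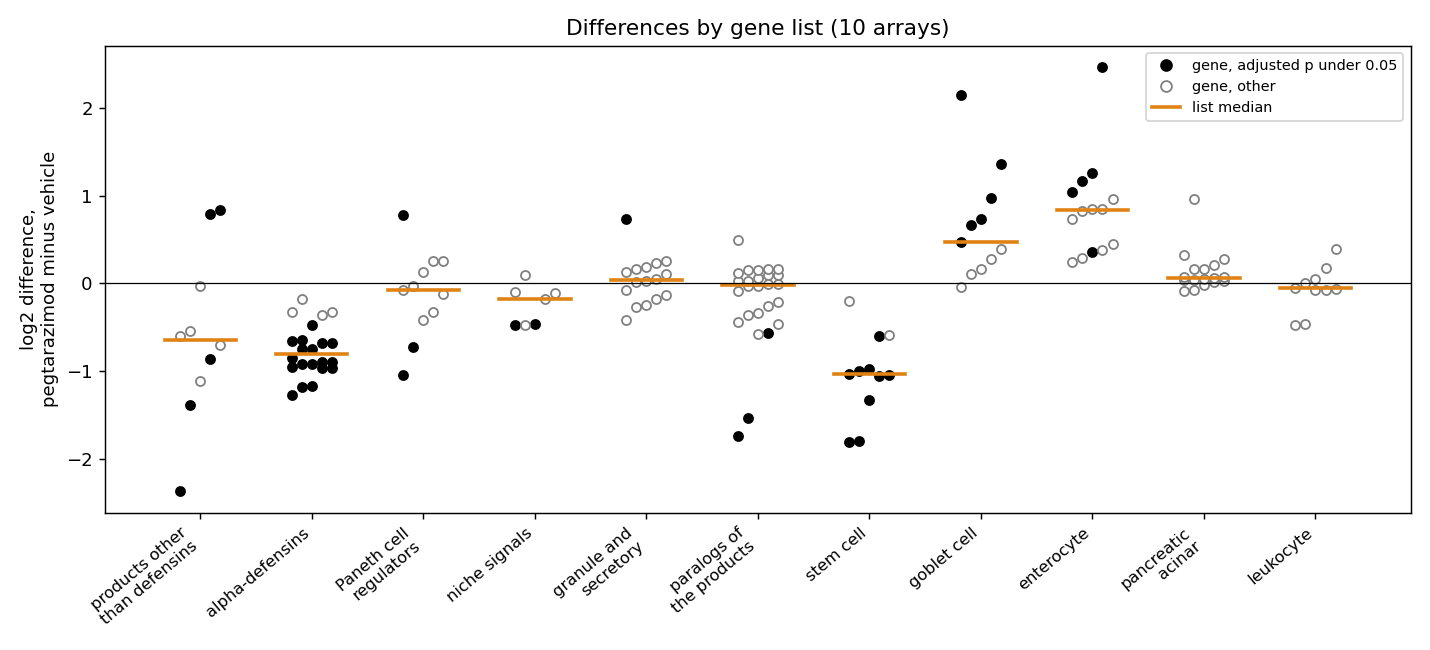
Log2 differences, pegtarazimod minus vehicle over 10 arrays, of the genes of 11 lists; each point is a gene, filled where the limma adjusted p was below 0.05, and orange lines are list medians. The 10 products spread from -2.38 to 0.84, while the alpha-defensins lay between -1.28 and -0.17 and the acinar and leukocyte lists centred near 0.

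Markers of other cell types moved with the same comparison. In the crypt base stem cell list 9 of 11 genes fell and none rose, at a mean level per array between 7.50 and 8.22 with pegtarazimod and between 8.90 and 9.21 with vehicle, led by Ascl2 (-1.80), Sox9, Rgmb (-1.0) and Axin2 (-1.81). In the goblet cell list 6 of 11 genes rose and none fell, with mean levels of 7.19 to 7.52 with pegtarazimod and 6.65 to 6.92 with vehicle, led by Muc2 (1.37), Zg16 (2.15), Clca1 (0.98) and Fcgbp (0.67). Of 14 enterocyte genes 5 rose and none fell, with mean levels of 9.01 to 10.0003 with pegtarazimod and 8.23 to 8.79 with vehicle, led by Fabp2 (1.17), Slc15a1 (1.27), Fabp1 (2.47) and Mttp (1.04). With the block 10 of these 14 enterocyte genes were higher, within replicates 1 and 2 the count was 13, and within replicates 3 to 5 it was 5. In the stem cell list 9 genes were lower within each set of replicates, and in the goblet cell list 3 were higher within replicates 1 and 2 and 7 within replicates 3 to 5. The part of these shifts in the values of the Paneth cell products was not tested. Of 10 leukocyte genes none passed without the block and Lyz2 was lower with it (limma adjusted p = 0.0148), with mean levels of 4.72 to 4.97 with pegtarazimod and 4.74 to 5.01 with vehicle.

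The patterns most like 2 of the products that changed were also sought among all other genes. Over the 10 arrays, the genes closest to Pla2g2a were Thbs1, a matricellular protein gene, Ccdc3 and Flna, an actin crosslinker gene, with root mean square differences of 0.50, 0.54 and 0.60 log2 units after centring. Thbs1 differed by -2.52, Ccdc3 by -2.50 and Flna by -1.55. The genes closest to Mptx2 were Thrb, a thyroid hormone receptor gene, Pbld2 and the Wnt receptor gene Fzd5, at 0.16, 0.20 and 0.20 log2 units, with differences of 0.72, 0.87 and 0.78. For Lyz1, Lyz2 was followed by Mecom and Zbtb10, both transcription factor genes, at 0.20 log2 units each.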

How the data were processed

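RNA of 10 organoid cultures was measured on single-colour arrays, 5 per group. The deposited values are log2 intensities that were background-corrected, normalised and summarised by RMA in oligo, per the submitters' processing notes, with versions not given in the sources used here. Of 22203 probe sets, 19572 carried 1 gene symbol in the platform annotation, 2631 carried none and were left out, and the probe set with the highest mean was kept for each of 19505 genes. Groups were compared by lmFit and eBayes of limma 3.58.1, run in R 4.3.3, with Benjamini-Hochberg adjustment over all genes and a threshold of 0.05. A fit with 4 groups (treatment by replicates 1 and 2 or 3 to 5) gave the values within subsets and the interaction. These, and the block for replicates 1 and 2 against 3 to 5, were chosen after the data were seen. Pairs of genes were tested by exact permutation over 252 splits of the arrays in Python 3.11.15. The limma script was tested on simulated data. All 10 products are described, and of the other lists the up to 4 genes with the smallest p past the threshold are named, with the paralogs of the same subfamily. The regulators, niche genes and other genes given that did not pass were named after their values were seen. The members and lists were chosen with earlier results of these data known. Alternatives covered normalisation, dim genes, priors, array weights, blocks, probe sets and left-out arrays. The number of arrays limits the precision.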

Additional observations from a re-analysis of the deposited data

Results flagged for a closer look

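Pnliprp2 on the vehicle 4 array, at 7.28, stood apart from the other 4 vehicle arrays, which lay between 7.04 and 7.10: its gap to the nearest of them was 0.7504 of the group's whole range, above Dixon's critical value of 0.71 for 5 samples. This was 1 of 20 groups examined (10 genes in 2 groups), and chance flags about 1 in 20.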

How the results depend on the processing

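Over all genes 954 passed, against 1606 with the replicate block, 1820 with replicates 1 and 2 against 3 to 5 as a block, and 437 to 1245 when 1 array was left out (552 without pegtarazimod 1, 522 without pegtarazimod 2, 437 without vehicle 3, 498 without vehicle 4 and 562 without vehicle 5). Of the 10 products, 3 were lower, against 7 with either block, 5 within replicates 3 to 5, and 2 or 3 without 1 array. The 2 that were higher became 0 within replicates 1 and 2 and ranged between 0 and 2 without 1 array. With the replicate block Lyz1 (limma adjusted p = 0.00556), Mmp7 (0.000164), Itln1 (0.00816) and Clps (0.0139) also passed. The main fit did not take the numbers as pairs, and the sources used here do not say whether they mark pairs. Same-numbered arrays had residual correlations of 0.299, 0.310, 0.0993, 0.227 and 0.130. Each pegtarazimod array except pegtarazimod 5, and each vehicle array except vehicle 3, correlated best with the array of its own number in the other group. Only group means were removed for these correlations, so they still hold the division of replicates 1 and 2 from 3 to 5. How far that division gave these matches was not tested. The adjusted exact permutation p of the Mptx1 and Mptx2 differences from Lyz1 lay between 0.0357 and 0.131 without 1 array, and that of Mptx2 minus Mptx1 between 0.175 and 0.730. Ang4 still passed when the dimmest 25% of genes by mean were left out (limma adjusted p = 0.00766). It was itself among the dimmest 50%, so it was not tested when these were left out. No difference of a product that had passed changed sign under any alternative run. The causes of these shifts were not tested.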

Other observations

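Of 12 enteroendocrine genes measured, the hormone genes Gcg, Cck and Gip rose by 1.38, 0.75 and 1.00, and Neurog3, the transcription factor of their progenitors, fell by 0.85 (limma, all genes adjusted). The list median was 0.41, and with replicates 1 and 2 against 3 to 5 as a block 5 rose and 1 fell. Of 8 tuft cell genes none passed without the block, and Pou2f3 was lower with it (limma adjusted p = 0.0088), with a list median of -0.01, and of 10 mesenchymal genes only Vim passed, rising by 0.63 (limma adjusted p = 0.024).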
